A study of Mus musculus with 24 samples.

Results

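Hippocampal messenger RNA of 3xTg-AD mice (3xTg) was compared with that of B6129SF2/J mice (WT), both kept on the control diet. The comparison used 7 of the 24 libraries of the study, 3 of 3xTg (3xTg_C_1 to 3xTg_C_3) and 4 of WT (WT_C_1 to WT_C_4), chosen by strain and diet as labelled. It was then repeated without any library whose Thy1 level went against its strain label, with a normalised count of Thy1 above 15000 taken as the mark of 3xTg. All mice were female. They began the diet at 3 months of age and stayed on it for 6 months. Carbohydrate made up 70% of it, long-chain triglyceride 20% and protein 10%, with an energy content of 4.1 kcal/g. The other 17 libraries came from the same strains on a ketogenic diet (90% long-chain triglyceride and 10% protein, 5 of 3xTg and 4 of WT) or on a control diet enriched with medium-chain triglyceride (MCT, 10% medium-chain and 10% long-chain triglyceride, 4 of each strain).

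The 3xTg line is a model of Alzheimer's disease that carries mutant human APP and MAPT transgenes under the neuronal Thy1 promoter cassette. APP is the precursor that secretases cut into amyloid-beta, and MAPT encodes the microtubule protein tau. The transgenes are expressed in neurons, and the strains also differ in genetic background, so an effect of the transgenes and an effect of background alleles cannot be told apart in this comparison. A whole hippocampus contains the granule cells of the dentate gyrus, the pyramidal cells of the CA fields, interneurons and glia. In such bulk tissue fewer cells of a type and less RNA per cell cannot be told apart.

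Reads assigned to genes ran between 13 and 16 M in the 3xTg control libraries, and between 10.1 M (WT_C_2) and 16.1 M in the WT control libraries. Thy1 had normalised counts of 27207, 21747 and 9189 in 3xTg_C_1, 3xTg_C_2 and the library labelled 3xTg_C_3, against 7045, 6952, 7793 and 7713 in WT_C_1 to WT_C_4. App had 32269, 31171 and 23524 in the same 3xTg libraries, against 23256, 23391, 24902 and 25302 in WT. Thus the library labelled 3xTg_C_3 was below the threshold and lay beside WT for both genes. Thy1 also went against the label in the libraries labelled 3xTg_K_1 and WT_M_2. The fit without discordant libraries therefore held 21 libraries, with 2 of 3xTg and 4 of WT on the control diet. There Thy1 and App were 3.30-fold and 1.31-fold higher in 3xTg, values that the choice of libraries fixed and that carry no test here. Mapt had 7698, 7834 and 6970 in 3xTg against 7003, 6553, 7183 and 7764 in WT, and the groups overlapped. Transgene reads of human origin could have been assigned to the mouse genes App, Mapt and Thy1.

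**Figure D1:**
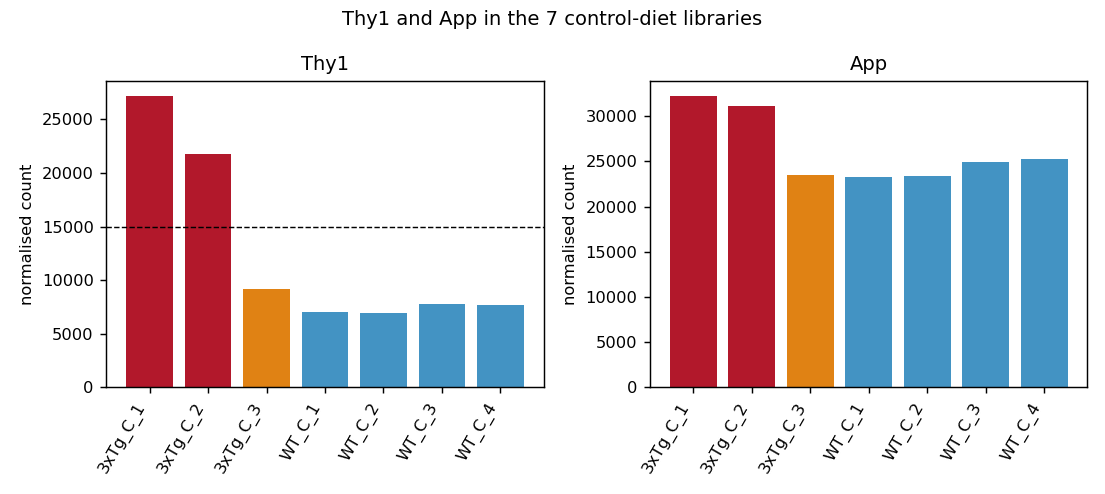
Normalised count (y axis, linear from 0) of Thy1 and App in each control-diet library, with 1 bar per library, 3xTg on the left and WT on the right; the dashed line marks the Thy1 threshold of 15000. The library labelled 3xTg_C_3 (orange) has 9189 for Thy1 and 23524 for App, beside the 4 WT libraries.

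With all libraries as labelled, 8 of 14162 genes differed between 3xTg and WT at an adjusted p under 0.05 (limma with Benjamini-Hochberg adjustment), which is 0.0565% of the genes tested. Zfp367 rose (0.00706%), and Nav1, Notch1, Ntng2, Adam1a, Auts2, Cemip and Kat6b fell (0.0494%). A further measure of the same fit is that 2050 genes, or 14.5%, had an unadjusted p under 0.05. The groups did not overlap for any of the 8 genes, and the library labelled 3xTg_C_3 lay on the 3xTg side for each of them. The fit that called these genes counted that library as 3xTg, so its place there follows from how they were chosen.

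Nav1, which guides growing neurites along microtubules, had 1263, 1388 and 1674 normalised counts in 3xTg, against 2338, 2443, 1976 and 2115 in WT. Its log2 difference was -0.63 ± 0.11 (SE; limma adjusted p = 0.0348). Ntng2, a membrane-anchored netrin that organises synapses, had 204, 227 and 247 in 3xTg, against 332, 315, 322 and 323 in WT. The 4 WT values were within a narrow band, and the log2 difference was -0.52 ± 0.09 (limma adjusted p = 0.0348). Notch1, the receptor that keeps neural stem cells undifferentiated, had 396, 434 and 376 in 3xTg, against 498, 604, 512 and 526 in WT. The difference was -0.41 ± 0.08 (limma adjusted p = 0.0498), the closest of the 8 to the threshold. Notch1 was not called under 13 of the 20 alternatives run, among them a pseudocount of 5, TMM factors, library weights and depth as a covariate.

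A pair of the falling genes encode chromatin regulators. Kat6b, a histone acetyltransferase, had 821, 898 and 962 in 3xTg, against 1053, 1199, 1072 and 1066 in WT, and Auts2, a partner of Polycomb complexes in neurons, had 1149, 1516 and 1235 in 3xTg, against 1880, 1701, 1631 and 1801 in WT. Their log2 differences were -0.30 ± 0.06 and -0.44 ± 0.08. Cemip, which takes part in hyaluronan breakdown, had 338, 381 and 363 in 3xTg, against 538, 517, 461 and 492 in WT. Adam1a, a metalloprotease gene best known from sperm, had 28.7, 40.9 and 46.7 in 3xTg, against 83.5, 85.4, 63.6 and 82.4 in WT, and its difference of -1.02 ± 0.17 was the only one of the 8 beyond 2-fold. Zfp367, a zinc finger gene, had 530, 522 and 465 in 3xTg, against 367, 363, 357 and 360 in WT, a difference of 0.48 ± 0.09. None of the 8 calls was made without 3xTg_C_1, without WT_C_1, without WT_C_2 or with the compared groups fitted alone, and in each of these fits the count of called genes was 0.

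Without the discordant libraries, 246 of 14126 genes were called, which is 1.74% of those tested. Of these, 117 rose (0.828%) and 129 fell (0.913%) in 3xTg, with a median absolute log2 difference of 0.59. A change beyond 2-fold was seen in 74 genes, 28 higher and 46 lower. All 246 are protein-coding, and they include Thy1 and App, which the choice of libraries fixed. The median over all genes tested was -0.0046. The 3xTg arm then had 2 libraries, and the count was 51 without 3xTg_C_1 and 218 without 3xTg_C_2. Of 49 called genes under the naming rule other than Thy1 and App, 15 were called under every alternative in which they were tested. Nav1, Zfp367, Lgr6, Spink8, Capza1, Fut10, Serpina3n, Ccl27a, Pla2g4e, Pcdhga11, Mcm6 and C1ql2 were tested under all 19 alternatives run. Serpina3m, Eif3j2 and Col6a5 were tested under 18, since a filter at a mean of 50 removed them. The other 34 each lost the call when 3xTg_C_1 was left out, with a limma adjusted p of up to 0.896 (Csf1), and 16 of the 49 lost it without 3xTg_C_2.

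The place of each control library between the strains was read from genes that had been called on the other 2 diets. The means on those diets used none of the 7 control libraries, but 6 of these entered the same fit and its estimate of spread. On a scale with 0 at the WT mean and 1 at the 3xTg mean of those diets, 1070 genes other than Thy1 and App had median positions of 0.98 and 0.95 in 3xTg_C_1 and 3xTg_C_2. For the library labelled 3xTg_C_3 the median was 0.17, and WT_C_1 to WT_C_4 had 0.16, 0.19, -0.020 and -0.00060. The library labelled 3xTg_C_3 was nearer 3xTg for 28.6% of these genes, against 82.8% and 85.5% in 3xTg_C_1 and 3xTg_C_2. In the 4 WT libraries the share was 28.1%, 29.9%, 14.5% and 15.7%. Across the genes other than Thy1 and App that were called on the control diet without the 3 discordant libraries, 49 of 244 placed the library labelled 3xTg_C_3 nearer 3xTg.

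**Figure D2:**
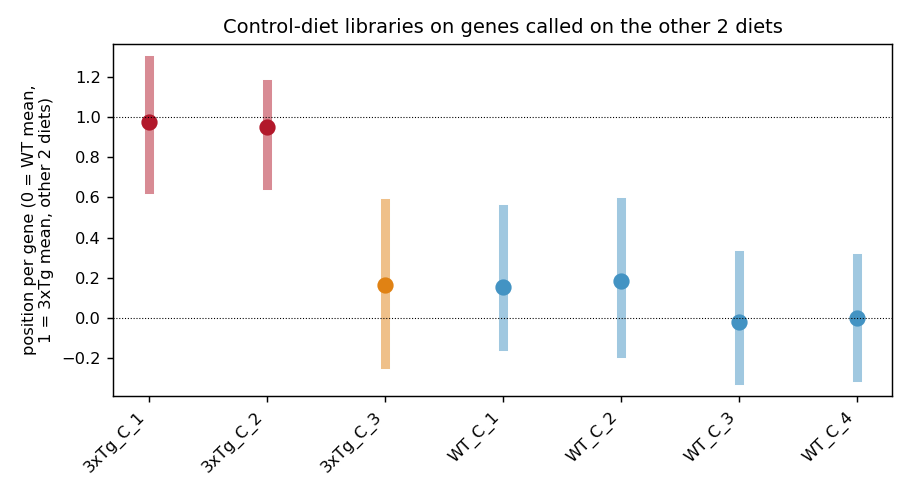
Position of each control-diet library between the WT mean (0) and the 3xTg mean (1) of the ketogenic and MCT diets, over 1070 genes called on those diets; points are medians and lines run over the middle 50% of genes. 3xTg_C_1 and 3xTg_C_2 have medians of 0.98 and 0.95, and the library labelled 3xTg_C_3 has 0.17, within the range of the WT libraries.

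Of called genes whose mean was 32 normalised counts or more, the largest falls in the repeated comparison included genes that were nearly silent in both 3xTg libraries. Tuba1c, an alpha-tubulin, had 5.51 and 6.36 normalised counts in 3xTg_C_1 and 3xTg_C_2, against 247, 280, 136 and 174 in WT, and the log2 difference was -4.87 ± 0.94 (limma adjusted p = 0.00646). Serpina3m, a serine protease inhibitor, had 1.10 and 1.82 in these 3xTg libraries, against 53.8, 30.8, 102 and 84.2 in WT, a difference of -4.68 ± 0.52 (limma adjusted p = 7.15e-06). The library labelled 3xTg_C_3 had 164 for Tuba1c and 69.6 for Serpina3m, within the WT range for both. Its neighbour Serpina3n, a serpin that reactive astrocytes secrete, had 831 and 847 in 3xTg and 3605 in the library labelled 3xTg_C_3, against 1975, 1821, 3768 and 3470 in WT. It fell by 1.64 ± 0.24 on the log2 scale (limma adjusted p = 0.00026), and WT itself split into a lower and a higher pair. The serpins of this cluster are close relatives that can take each other's reads.

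Among secreted signals, 2 chemokines fell. Ccl27a, a skin and brain chemokine, had 36.4 and 15.4 in 3xTg, against 238, 238, 213 and 214 in WT, a difference of -3.19 ± 0.25 (limma adjusted p = 3.16e-08). Ccl28, a mucosal chemokine that shares the receptor Ccr10 with it, had 6.61 and 6.36 in 3xTg, against 43.6, 53.2, 103 and 19.7 in WT, a difference of -2.67 ± 0.50. The lowest WT value of Ccl28 was closer to 3xTg than to the highest WT value. Ccl27a lies in a region of near-identical gene copies, and its reads may be shared with them.

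Mcm6, a subunit of the helicase that opens replication origins, had 45.2 and 39.1 in 3xTg, against 212, 228, 245 and 226 in WT. It was 231 in the library labelled 3xTg_C_3, and the difference without the discordant libraries was -2.41 ± 0.18 (limma adjusted p = 9.58e-09). Pcdhga11, a clustered protocadherin that gives neurons their surface identity, had 55.1 and 55.4 in 3xTg, against 321, 340, 337 and 360 in WT. It was 351 in the library labelled 3xTg_C_3, and the difference was -2.60 ± 0.19. Col6a5, a collagen VI chain, had 9.92 and 9.99 in 3xTg, against 82.6, 58.8, 66.4 and 54.7 in WT. Pla2g4e, a phospholipase that makes N-acyl phospholipids, had 28.7 and 32.7 in 3xTg, against 250, 451, 206 and 200 in WT. Eif3j2, a copy of the gene for a translation initiation factor subunit, had 3.31 and 2.73 in 3xTg, against 48.3, 77.0, 57.0 and 36.7 in WT. Differences for these last 3 genes were -2.59 ± 0.28, -3.05 ± 0.37 and -3.75 ± 0.49. The same 3 genes had 73.5, 409 and 90.6 in the library labelled 3xTg_C_3, inside the WT range or above it. Ddx4, a germline RNA helicase, and Tagap, a GTPase activator of T cells, were also among the largest falls, with differences of -2.11 ± 0.38 and -2.24 ± 0.41. Reads of Tuba1c, Eif3j2 and Pcdhga11 may be shared with paralogs.

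The largest rise by the same rule was in Stbd1, which anchors glycogen to membranes, with 206 and 202 in 3xTg, against 24.1, 93.9, 17.8 and 20.6 in WT. WT_C_2 was the high library of WT, and the difference was 2.71 ± 0.50 (limma adjusted p = 0.00407). Lgr6, a receptor for R-spondins in the Wnt pathway, had 268 and 304 in 3xTg, against 84.4, 53.2, 78.5 and 60.9 in WT, a difference of 2.05 ± 0.17 (limma adjusted p = 5.09e-08). Spink8, a secreted protease inhibitor and a marker of CA1 pyramidal cells, had 427 and 392 in 3xTg, against 121, 96.7, 97.2 and 129 in WT, a difference of 1.89 ± 0.22. Lgr6 at 53.4 and Spink8 at 127 lay beside WT in the library labelled 3xTg_C_3.

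Rpl34, a ribosomal protein gene, had 483 and 377 in 3xTg, against 56.6, 68.6, 54.2 and 202 in WT. Capza1, which caps actin filaments, had 164 and 185 in 3xTg, against 50.1, 39.2, 38.3 and 97.7 in WT. Tagap1 had 260 and 235 in 3xTg, against 83.5, 89.7, 72.0 and 158 in WT. For these 3 genes WT_C_4 stood between the other WT libraries and 3xTg, and the library labelled 3xTg_C_3 stood near WT_C_4 with 204, 90.6 and 147. The differences without the discordant libraries were 2.39 ± 0.40, 1.72 ± 0.27 and 1.36 ± 0.27. For Tagap, which lies near Tagap1, WT_C_4 and the library labelled 3xTg_C_3 again had values between, at 55.6 and 40.1, where 3xTg had 18.7 and 16.4 and the other WT libraries 105, 96.7 and 99.1.

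Cd59a, which blocks the last step of complement, had 100 and 152 in 3xTg, against 70.5, 16.8, 38.3 and 17.9 in WT, a difference of 2.00 ± 0.47. Fut10, a fucosyltransferase, had 163 and 164 in 3xTg, against 50.1, 53.2, 60.8 and 60.9 in WT, a difference of 1.53 ± 0.22. Emilin2, an extracellular matrix glycoprotein, and Zfp457, a KRAB zinc finger gene, rose by 1.38 ± 0.26 and 1.38 ± 0.35. Thy1 and Cdkn1a, described with its pathway, made up the 12 largest rises. Reads of Rpl34 may be shared with its processed copies.

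**Figure D3:**
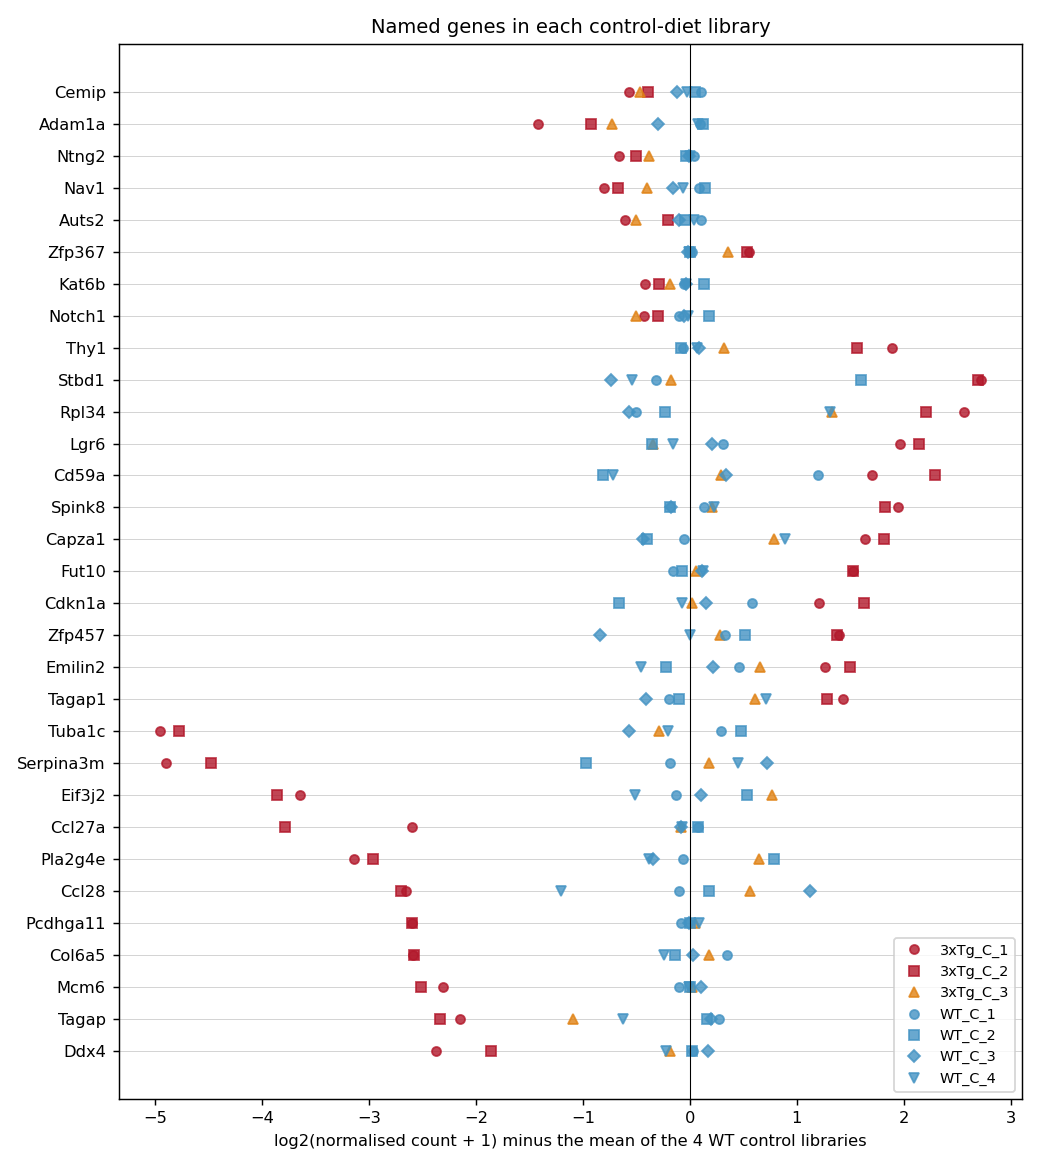
Log2 of the normalised count plus 1 in each control-diet library minus the mean of the 4 WT libraries (x axis), for the 8 genes called as labelled and the largest rises and falls of the repeated comparison (y axis). Each point is 1 library, and the library labelled 3xTg_C_3 (orange) lies with WT for Tuba1c, Serpina3m, Lgr6 and Mcm6.

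Some called genes lay close to each other. Joining called genes whose starts were at most 1 Mb apart gave 16 stretches of 3 or more, which held 61 of the 246 genes, and 15 of the 16 contained both rises and falls. Each stretch begins and ends at a called gene, so the called shares within it are raised by how it was drawn. The number of such stretches to be expected was not computed. On chromosome 1, from 134182176 to 135810989 (GRCm38), 6 of 25 tested genes were called. Chil1 and Lgr6 rose there, while Ppp1r12b, Shisa4, Nav1 and Tnni1 fell. On chromosome 13, from 119462768 to 119790889, 5 of 6 tested genes were called. Hmgcs1 rose there, and Ccl28, Zfp131, Tmem267 and 4833420G17Rik fell. On chromosome 9, from 105403539 to 106447678, 6 of 16 tested genes were called, among them Col6a5 and its neighbour Col6a6, another collagen VI chain, which both fell. On chromosome 17, from 6955011 to 8257141, Tagap1 rose, while Tagap and Ccr6 fell, and on chromosome 8, from 31150315 to 32884029, Tti2 and Fut10 were called with Nrg1. By chromosome the called share was highest on chromosome 5 at 3.19%, chromosome 3 at 3.06% and chromosome 9 at 2.86%, and among nuclear chromosomes it was lowest on chromosome 4 at 0.459% and X at 0.403%, where all genes together had 1.74%. None of the 8 tested genes of the mitochondrial genome was called. A link of these stretches to background alleles or to the insertion sites of the transgenes was not tested.

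Among neurons, the dentate granule cell list had 9 of 12 members lower in 3xTg and 2 called, both lower, with a median log2 difference of -0.24 beside -0.0046 over all genes. The median was -0.13 without 3xTg_C_1. Over all genes 1.74% were called and 48.8% were higher. C1ql2, which granule cells secrete at mossy fibre synapses, had 273 and 305 in 3xTg, against 667, 611, 857 and 768 in WT. The groups were far apart, and it fell by 1.31 ± 0.16 on the log2 scale (limma adjusted p = 2.31e-05). Lct, lactase, which granule cells express, fell by 0.81 ± 0.18 (limma adjusted p = 0.0143). Prox1, the transcription factor that sets granule cell identity, had 1754 and 2071 in 3xTg, against 2490, 2184, 2577 and 2261 in WT, and at -0.32 ± 0.12 it did not pass the test (limma adjusted p = 0.21). The list for pyramidal cells had 9 of 17 members higher and 1 called, Spink8, with a median of 0.0012 that was 0.07 without 3xTg_C_1 and -0.04 without 3xTg_C_2.

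The interneuron list had 11 of 17 members higher and 2 called, both higher, where 48.8% of all genes were higher and 1.74% were called. Vip, the neuropeptide of a class of interneurons that inhibit other interneurons, had 513 and 438 in 3xTg, against 310, 332, 309 and 381 in WT, and rose by 0.51 ± 0.12. Htr3a, the serotonin receptor channel that marks the same lineage, had 238 and 194 in 3xTg, against 78.9, 86.8, 131 and 147 in WT, and was 1.99-fold higher. The library labelled 3xTg_C_3 had 411 for Vip, above every WT library, and 132 for Htr3a, inside the WT range.

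Of the excitatory synapse list, 19 of 25 members were lower and 1 called, where 48.8% of all genes were higher and 1.74% called. The 1 called was Shank3, a scaffold of the postsynaptic density. It had 1819 and 2562 in 3xTg, against 2894, 3239, 2940 and 2913 in WT, a difference of -0.47 ± 0.11 (limma adjusted p = 0.0198). Immediate early genes, the first to respond to neuronal firing, had 20 of 24 members lower with a median of -0.21. None was called with limma over all genes, and 3 had an unadjusted p under 0.05, where 14.9% of all genes did. As labelled the median was -0.32, or -0.21 without WT_C_2, and none was called. In that fit 11 members had an unadjusted p under 0.05, where 14.5% of all genes did. Dusp5, the member with the smallest p in the repeated comparison, was higher in 3xTg but not called (limma adjusted p = 0.0754). Fos had 297 and 290 in 3xTg, against 353, 856, 345 and 474 in WT, and WT_C_2 was the high library. Potassium channels had 16 of 18 members lower, a median of -0.13 and no called member, and without 3xTg_C_1 the median was -0.0028.

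In the lists of neuronal wiring and of chromatin regulation most members were lower, where 48.8% of all genes were higher and 1.74% were called. Axon guidance and navigation genes had 33 of 36 members lower, with a median of -0.14 and 2 called, Nav1 and Ntng2. Notch pathway genes had 22 of 28 members lower, with a median of -0.15 and 2 called, Notch1 and its target Hes5, a repressor of neuronal genes. The median was -0.09 without 3xTg_C_1 and -0.23 without 3xTg_C_2. Hes5 had 35.3 and 26.3 in 3xTg, against 52.9, 77.0, 70.1 and 60.9 in WT, a difference of -1.06 ± 0.24. Hes5 was at 80.1 in the library labelled 3xTg_C_3, above every WT library. Chromatin regulators had 18 of 21 members lower, with a median of -0.22 and 2 called, Kat6b and Auts2. Without 3xTg_C_1 the median of the chromatin list was -0.06. The insulin and IGF list had 15 of 23 members lower and none called. Igf1r, the IGF1 receptor, had 1117 and 1403 in 3xTg, against 1619, 1523, 1463 and 1530 in WT, at -0.29 ± 0.08 (limma adjusted p = 0.0511).

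Among genes tied to Alzheimer's disease and APP cutting, 16 of 26 were higher (median 0.04, or 0.02 without WT_C_3), and 1 was called. Over all genes 48.8% were higher and 1.74% were called. Aph1b, a subunit of gamma-secretase, had 870 and 888 in 3xTg, against 698, 700, 721 and 659 in WT, and rose by 0.34 ± 0.07 (limma adjusted p = 0.00937). In the library labelled 3xTg_C_3 it was at 708. Bace1, the secretase that makes the first cut, had 1606 and 1668 in 3xTg, against 1621, 1562, 1710 and 1701 in WT, and the groups overlapped.

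Of 13 homeostatic microglia genes 11 were higher (median 0.18) and 1 was called, Selplg, a selectin ligand, at 374 and 323 in 3xTg, against 200, 256, 254 and 244 in WT. Of all genes tested, 48.8% were higher and 1.74% were called. In the list of microglia around plaques, 8 of 15 tested members were higher and the 2 called were both lower. The median of that list was 0.05, with -0.0045 without 3xTg_C_1 and -0.0054 without WT_C_1. Gpnmb, a lysosomal glycoprotein, had 68.3 and 58.1 in 3xTg, against 116, 96.7, 122 and 125 in WT, and fell by 0.85 ± 0.18. Csf1, the growth factor of microglia, had 262 and 348 in 3xTg, against 425, 349, 433 and 408 in WT, a difference of -0.41 ± 0.10 (limma adjusted p = 0.0372). Csf1 was not called with the compared groups fitted alone or with a replicate block. Of 13 homeostatic astrocyte genes 10 were higher, at a median of 0.11 (0.07 without WT_C_3), and the 1 called, Sox9, the glial transcription factor, was lower at -0.57 ± 0.14. Reactive astrocyte genes had 9 of 13 tested members lower and Serpina3n called. Gfap, the intermediate filament of astrocytes, had 5420 and 5448 in 3xTg, against 4437, 4218, 4300 and 4762 in WT, at 0.30 ± 0.10 (limma adjusted p = 0.12).

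Of 16 myelin genes 12 were higher and none was called, at a median of 0.17, and all 16 were higher with the libraries as labelled, with a median of 0.24. Mbp, a major protein of compact myelin, had 29551, 33929 and 29076 in 3xTg, against 25890, 22711, 24888 and 28671 in WT. The lowest value belonged to WT_C_2, without which the median of the list was 0.12 as labelled and 0.05 in the repeated comparison, where it was 0.11 without 3xTg_C_2. Oligodendrocyte precursor genes had 8 of 12 members higher and none called. Over all genes 48.8% were higher and 1.74% were called. Endothelial and mural genes had 10 of 15 lower and 1 called, Flt1, a VEGF receptor, with 825 and 850 in 3xTg, against 1062, 1046, 1061 and 1092 in WT. Its difference was -0.35 ± 0.09 (limma adjusted p = 0.0469), and edgeR's quasi-likelihood test did not call it.

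Cholesterol made in the brain comes from local synthesis, and sterols are sensed through SREBP factors that bind sterol response elements near CCAAT boxes. Of 24 tested genes of cholesterol synthesis and uptake, 16 were higher in 3xTg and 2 were called (1.74% over all genes), both higher, with a median of 0.11. Hmgcs1, which makes HMG-CoA early in the pathway, had 5601 and 5111 in 3xTg, against 3539, 4002, 3923 and 4018 in WT, and rose by 0.47 ± 0.09 (limma adjusted p = 0.0065). It had 4988 in the library labelled 3xTg_C_3, on the 3xTg side. Sc5d, which sets a double bond late in the pathway, had 1584 and 1625 in 3xTg and 1604 in the library labelled 3xTg_C_3, against 1362, 1342, 1319 and 1428 in WT, and rose by 0.24 ± 0.06 (limma adjusted p = 0.0317).

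The 250 bases before the start of these 2 called genes are given because the pathway's factors act there. They come from RefSeq for GRCm38.p6, 5′ to 3′ on the gene's strand, and capitals mark TCACNCCAC (a sterol response element) and CCAAT or its reverse complement ATTGG. The Hmgcs1 window is chr13:119690101-119690350 on the plus strand and the Sc5d window is chr9:42264301-42264550 on the minus strand.
Hmgcs1: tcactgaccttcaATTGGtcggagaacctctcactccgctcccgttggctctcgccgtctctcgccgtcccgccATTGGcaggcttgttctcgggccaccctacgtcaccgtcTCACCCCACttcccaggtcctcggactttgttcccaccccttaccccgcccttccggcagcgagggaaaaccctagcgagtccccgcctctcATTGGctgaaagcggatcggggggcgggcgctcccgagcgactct
Sc5d: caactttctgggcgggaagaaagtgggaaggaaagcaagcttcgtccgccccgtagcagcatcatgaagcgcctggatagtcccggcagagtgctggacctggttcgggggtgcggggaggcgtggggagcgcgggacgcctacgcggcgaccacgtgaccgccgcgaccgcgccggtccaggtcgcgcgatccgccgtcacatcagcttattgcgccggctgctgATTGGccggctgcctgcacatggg
The Hmgcs1 window held 1 sterol response element and 3 CCAAT boxes, and the Sc5d window held 1 CCAAT box. Both strands were searched, and the motifs do not overlap here. Of 17 list genes with a window in the table, 1 held TCACNCCAC and 16 held CCAAT, where 1.05% and 33.8% of all 32851 windows did. The list was counted by gene, with a match in any of its windows, and the background by window. The shares are therefore not on the same measure. A match is a description of letters and not a site of binding.

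Glucocorticoids act on hippocampal neurons and glia through the receptor gene Nr3c1, which binds a palindromic element in DNA. In this list 14 of 16 members were higher in 3xTg and 3 were called, all higher, which is 18.8% of the list, where 1.74% of all genes were called and 0.828% were called higher. The median of the list was 0.54, with 0.64 without 3xTg_C_1 and 0.51 without 3xTg_C_2. As labelled it was 0.36, or 0.16 without 3xTg_C_2, and no member was called. Cdkn1a, an inhibitor of the cell cycle, had 243 and 325 in 3xTg, against 157, 65.8, 116 and 99.5 in WT, and rose by 1.42 ± 0.28 (limma adjusted p = 0.00783). Pdk4, which turns glucose oxidation down, had 496 and 550 in 3xTg, against 300, 233, 307 and 198 in WT, and rose by 1.03 ± 0.27 (limma adjusted p = 0.0474). Ddit4, an inhibitor of mTORC1, had 756 and 854 in 3xTg, against 639, 465, 470 and 545 in WT, and rose by 0.61 ± 0.13. None of these is among the 15 genes called under every alternative, and Pdk4 was not called with no filter or with depth as a covariate. The library labelled 3xTg_C_3 had 106, 213 and 469 for these genes, in the WT range. Sgk1, a kinase gene that glucocorticoids switch on, had 2445 and 3061 in 3xTg, against 2505, 1101, 1288 and 1427 in WT. WT_C_1 was the high WT library for it and for Tsc22d3, where 3xTg had 1864 and 2150 and WT 1731, 889.5, 1073 and 861. The time of day and handling at sampling are not given in the labels, and their part in these values was not tested.

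Of 14 list genes with a window before their start, 3 held the receptor motif (GNACA, any 3 bases, then TGTNC; both strands searched), where 0.387% of all windows did. Here too the list was counted by gene and the background by window, so the shares are not on the same measure. The matches are shown in capitals with 8 bases on each side, all on the plus strand, at chr10:21993694-21993722 for Sgk1, chr3:96557777-96557805 for Txnip and chr8:94178987-94179015 for Mt1.
Sgk1: tgcggaaaGAACAGAATGTTCtcggagat
Txnip: cgctaggaGCACACCGTGTCCacgcgccc
Mt1: cactatagGGACATGATGTTCcacacgtc
Txnip, a brake on glucose uptake, had 483 and 579 in 3xTg, against 426, 324, 365 and 415 in WT. Mt1, a metallothionein, had 2109 and 2045 in 3xTg, against 1433, 1289, 1817 and 1478 in WT. Neither gene passed the test over all genes (limma adjusted p = 0.18 and 0.17). The windows of the 3 called members, Cdkn1a, Pdk4 and Ddit4, held no match to these letters.

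No listed gene of respiration passed the test on the control diet. Of 47 nuclear genes of oxidative phosphorylation, 43 were higher in 3xTg and the median was 0.09. With limma none was called, and 9 of the 47 had an unadjusted p under 0.05, where 14.9% of all genes did. Over all genes 48.8% were higher and 1.74% were called. Cox6c, a subunit of cytochrome oxidase, had 2240 and 2151 in 3xTg, against 1921, 1660, 1649 and 2034 in WT. Ndufb3, a subunit of complex I, had 1062 and 863 in 3xTg, against 766, 790, 825 and 844 in WT. The median of the list was 0.03 without 3xTg_C_1 and 0.18 without 3xTg_C_2. All 8 tested genes of the mitochondrial genome were higher, with a median of 0.21 (0.13 without WT_C_2) and none called, and mt-Nd2 was at -0.10 as labelled under quantile normalisation. The genes mt-Nd4l, mt-Co2, mt-Co3 and mt-Atp8 are listed at 0 in all 7 libraries. Heat shock chaperones had 10 of 16 members higher and none called. Hspa8, the constitutive chaperone, had 6795 and 6057 in 3xTg, against 3649, 2028, 3988 and 5828 in WT, a difference of 0.82 ± 0.24 (limma adjusted p = 0.0805).

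Interferon response genes had 14 of 17 tested members lower on the control diet, with a median of -0.19 and none called. Trim30a had 16.5 and 36.3 in 3xTg, against 38.0, 33.6, 37.4 and 40.3 in WT. The median was -0.04 without 3xTg_C_1 and -0.33 without 3xTg_C_2. Genes of adult neurogenesis had 9 of 12 members lower and none called. Neurog2, a proneural factor, had 13.2 and 14.5 in 3xTg and 11.4 in the library labelled 3xTg_C_3, against 1.86, 1.40, 0.935 and 7.17 in WT, at 2.20 ± 0.73 (limma adjusted p = 0.138). Replication and mitosis genes had 9 of 15 tested members lower with Mcm6 called. The complement list had 7 of 13 tested members lower, and the 1 called, Cd59a, was higher. C1ra, a complement protease outside this list, was called lower, with values given below. Of all genes tested, 48.8% were higher and 1.74% were called.

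Markers of neighbouring tissue were present in every library and differed among them. The summed normalised count of 14 choroid plexus genes ran between 3274 and 3998 in the libraries labelled 3xTg. In WT it ran between 2988 and 24052, and none of the 14 was at 0 in all libraries. Ttr, the transthyretin gene of that epithelium, had 36.4, 149 and 106 in 3xTg, against 11389, 286, 278 and 41.2 in WT. All 11 tested members were lower, the median was -0.99, none was called, and the median was -0.09 without WT_C_1 and -0.36 without 3xTg_C_1. Ependymal genes had 10 of 11 tested members lower and a median of -0.40. Their sums were 558 and 558 in 3xTg_C_1 and 3xTg_C_2, against 625 to 795 in WT. The library labelled 3xTg_C_3 had 707. Meningeal fibroblast genes had 10 of 11 lower and a median of -0.60 (-0.30 without 3xTg_C_1 and -0.97 without 3xTg_C_2), with sums between 4045 and 6437 in 3xTg and between 4623 and 7943 in WT. The striatum and neocortex list had sums of 5115 and 5155 in 3xTg_C_1 and 3xTg_C_2, against 5331 to 5655 in WT. The library labelled 3xTg_C_3 had 5608. The 1 called member of this list, Rgs9, had 82.7 and 108 in 3xTg, against 196, 189, 122 and 142 in WT. Of all genes tested, 1.74% were called. Red cell genes had 4 of 6 tested members higher and none called. The part of these cells in the differences above was not tested.

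**Figure D4:**
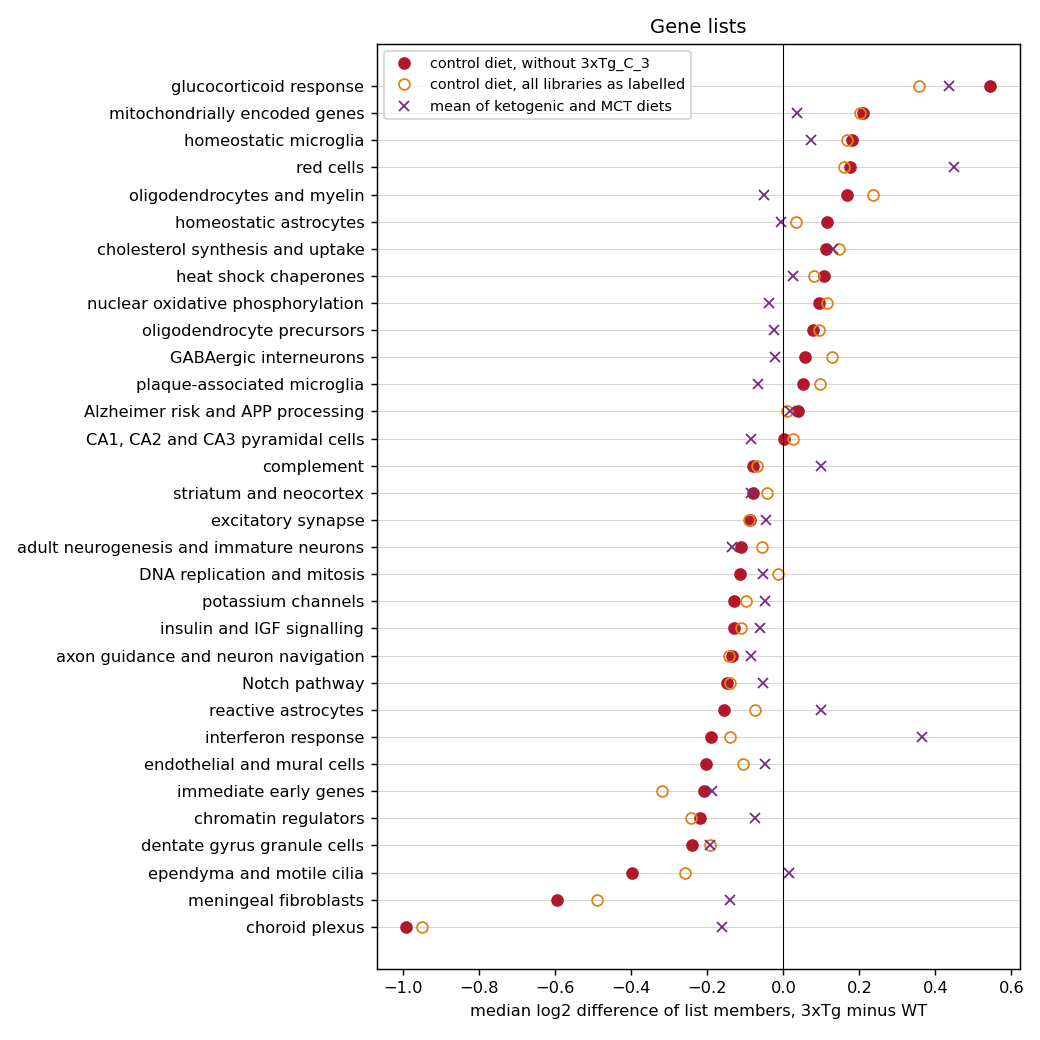
Median log2 difference (3xTg minus WT, x axis) over the tested members of each gene list. Filled circles are the control diet and crosses the mean of the ketogenic and MCT diets, both without the 3 discordant libraries. Open circles are the control diet as labelled. The glucocorticoid list has 0.54 and the choroid plexus list -0.99 on the control diet, and the interferon list has -0.19 there and 0.37 on the other diets.

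The same strains on the ketogenic and MCT diets gave a comparison of other libraries, with those labelled 3xTg_K_1 and WT_M_2 left out. It was fitted together with the control diet and with 1 shared estimate of spread. There the test called 1072 of 14126 genes (7.59%), of which 523 (3.7%) rose and 549 (3.89%) fell in 3xTg. With the compared groups fitted alone it called 1025. The ketogenic library 3xTg_K_2 had 2.65 M reads, the fewest of the 24 libraries, and 934 genes were called without it. Of the 246 genes called on the control diet, 244 differed in the same direction on the other diets, and 193, or 78.5%, were also called there in that direction, which is 18% of the 1072. By diet, 145 of them were called in the same direction on the ketogenic diet, where 3.62% of all genes were called (1.76% higher and 1.85% lower). On the MCT diet 132 of them were called in the same direction, where 1.77% of all genes were (0.927% higher and 0.842% lower). Thy1 and App, which the choice of libraries fixed, are in each of these counts. The share of all genes with the same direction on the control diet and the others was not computed. The median absolute log2 difference of the 246 genes was 0.59 on the control diet and 0.40 on the others, and 202 of the 246 were smaller there. The genes had been chosen for their size on the control diet.

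Of the 8 genes called with all libraries as labelled, Nav1, Ntng2, Adam1a, Cemip and Zfp367 were also called on the other diets. On the ketogenic diet Nav1 ran between 1325 and 1612 in 3xTg, against 1870 to 2174 in WT. On the MCT diet it ran between 1321 and 1508 in 3xTg, against 1951 to 2122 in WT. The strains did not overlap on either diet in these ranges, which leave out the libraries labelled 3xTg_K_1 and WT_M_2. Notch1 was at -0.08 ± 0.05 there (limma adjusted p = 0.435), Kat6b at -0.09 ± 0.04 (0.135) and Auts2 at -0.18 ± 0.06 (0.0514). The difference between the control diet and the others was -0.29 ± 0.10 for Notch1 and -0.26 ± 0.07 for Kat6b, with a limma adjusted p of 0.957 each.

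A test of that difference over all genes called none (0.0%), with 0 by limma, 0 by edgeR and 0 by DESeq2. Without adjustment, 672 genes (4.76%) were under 0.05. Among the 246 genes, 62 had such an unadjusted p. These genes had been chosen by their control-diet difference, which is part of the quantity tested. Their count therefore cannot be set against the share of all genes. With the libraries labelled 3xTg_K_1 and WT_M_2 left out, Eif3j2 and Pla2g4e were low in WT too on the MCT diet. Eif3j2 had 1.64 to 2.10 in WT there, as in 3xTg with 1.59 to 3.72, while on the ketogenic diet it had 1.95 to 11.8 in 3xTg and 42.6 to 101 in WT. Pla2g4e had 24.6 to 37.8 in 3xTg and 21 to 39.4 in WT on the MCT diet, and 21.4 to 55.3 in 3xTg and 213 to 510 in WT on the ketogenic diet. C1ra, a complement protease, and Pfdn5, a prefoldin subunit, were the 2 genes with opposite signs. C1ra had 7.72 and 2.73 in 3xTg, against 23.2, 18.2, 15.9 and 27.8 in WT, a difference of -1.94 ± 0.40 on the control diet and 0.19 ± 0.24 on the others. Pfdn5 was at 0.35 ± 0.09 on the control diet and -0.013 ± 0.054 on the others.

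No test of a list between diets was run, and the values of some lists on the other diets are set beside those of the control diet. Over all genes 7.59% were called on the other diets, 3.7% higher and 3.89% lower. The glucocorticoid list had a median of 0.54 on the control diet and of 0.43 on the others, where 15 of 16 members were higher and 9 called. The cholesterol list had 0.11 on the control diet and 0.13 on the others, where 22 of 24 were higher and 5 called. Dentate granule cell genes had -0.24 on the control diet and -0.19 on the others, where 5 of 12 were called lower. Of 36 axon guidance genes 2 were called lower on the control diet and 6 on the others. Interferon response genes had -0.19 on the control diet, or -0.04 without 3xTg_C_1, and 0.37 on the others, where 15 of 17 were higher and 4 called. The nuclear oxidative phosphorylation genes had 38 of 47 lower with a median of -0.04 on the other diets. Oasl2, an interferon-induced gene, was at -0.24 ± 0.52 on the control diet and rose on the others (limma adjusted p = 0.014). No gene of these lists was called in the test of the difference.

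**Figure D5:**
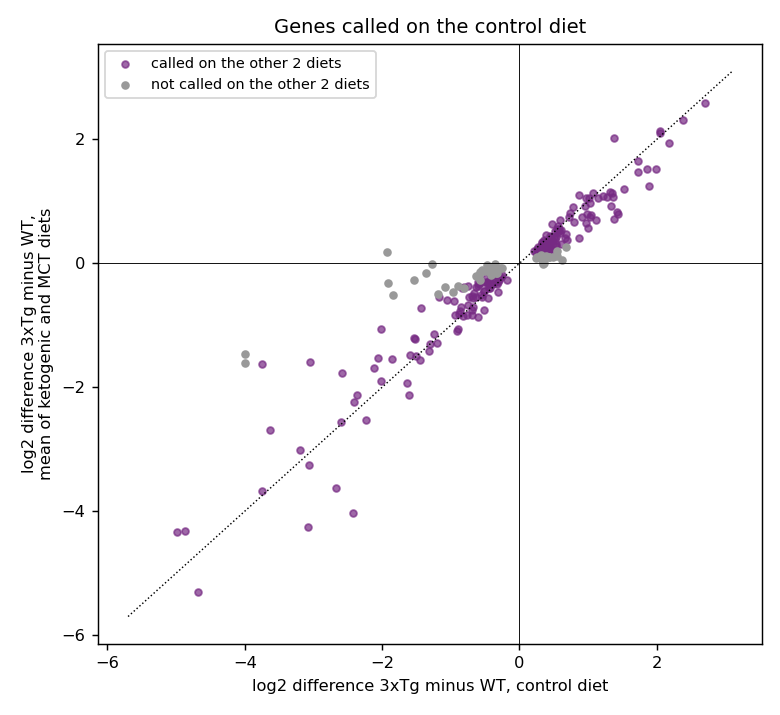
Log2 difference (3xTg minus WT) on the control diet (x axis) and averaged over the ketogenic and MCT diets (y axis) for the 246 genes called on the control diet. Each point is a gene, and both axes come from the fit without the 3 discordant libraries. Of the 246 genes, 244 have the same sign on both axes, and the 2 others are C1ra and Pfdn5.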

How the data were processed

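The authors deposited 1 table of signal values, normalised read counts of 21793 genes in 24 libraries. Trimmomatic, STAR and GRCm38 are named per the submitters' processing notes. Not given in the sources used here are the counter, the annotation, the scaling tool and whether the UMIs of the adapters were used. Dividing each library by 1 step gave whole numbers for 100% of values, within 0.01 reads, so whole reads were recovered for 23 libraries. WT_M_4 was left out of count tests because its step was too near 1 for that check. By symbol, 21556 genes matched 1 gene of GENCODE M21, 27 matched several and 184 matched none, and 26 names were altered to dates.

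Genes with at least 10 normalised counts in at least 3 libraries were kept. Log2 values after adding a pseudocount of 1 were fitted with limma 3.58.1 (R 4.3.3), with 1 mean per group of strain and diet, a mean-dependent prior variance and two-sided tests. All groups of a fit share 1 estimate of spread. Errors are SE unless named, and fold changes are on the log2(value + 1) scale, which understates low genes. Libraries stand for mice as labelled, so p-values measure the spread between these libraries, and counting depth adds counting error only. Libraries with the same replicate number had correlations of deviations from their group means of -0.11, 0.04 and -0.01. The 3xTg mean included the library labelled 3xTg_C_3, so these values cannot exclude a pairing by replicate number. edgeR 4.0.16 and DESeq2 1.42.0 on whole reads, other pseudocounts, filters and scalings were alternatives. The fit was also run on simulated data, and the outcome is not reported here. Named genes were Thy1, App, Mapt, the 8 genes called as labelled, the 12 largest rises and 12 largest falls among those called (mean 32 or more), and from each of 32 lists up to 4 called members or 2 with the smallest p. A few pathway genes outside this rule (such as Prox1, Fos, Bace1, Gfap, Sgk1, Tsc22d3, Ttr and Oasl2) and genes of the chromosomal stretches were chosen after their values were seen. Some genes that the rule takes are not reported here. The members and lists were chosen with earlier results of these data known.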

Additional observations from a re-analysis of the deposited data

Results flagged for a closer look

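Of 110 named genes and gene lists checked within the 4 WT control libraries, 7 had 1 library far from the other 3 by Dixon's test, where chance gives about 1 in 20. WT_C_2 was the library apart for 3 genes. It had 401 normalised counts of Cryab, a small heat shock protein, where the other WT libraries had 849 to 934, 1199 of Kat6b against 1053 to 1072, and 3239 of Shank3 against 2894 to 2940. WT_C_3 had 63.6 of Adam1a where the others had 82.4 to 85.4, and WT_C_4 had 55.6 of Tagap where the others had 96.7 to 105. The choroid plexus list had a mean centred log2 level of 2.62 in WT_C_1 and between -0.63 and -0.096 in the others. The interferon list had -0.11 in WT_C_4 and between 0.068 and 0.10 in the others. Outside the comparison, the library labelled WT_M_2 had 23048 of Thy1, where WT on the control diet had 6952 to 7793.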

How the results depend on the processing

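With all libraries as labelled, the count of 8 called genes was 13 with a filter at a mean of 50, 13 with library weights, 192 with DESeq2, 10 with edgeR and 0 with the compared groups fitted alone. Leaving out 1 library gave 0 to 104. It was 0 without any of 3xTg_C_1, WT_C_1 and WT_C_2, 4 without WT_C_3, 66 without 3xTg_C_3 and 104 without 3xTg_C_2. A pairing by replicate number was not excluded. A replicate block gave 5 genes, 4 of them shared, and 241 in place of 246 without the discordant libraries. With the compared groups fitted alone, 166 genes were called in place of the 246. That count of 246 was 418 with DESeq2, 302 with edgeR and 51 to 218 when 1 library was left out, lowest without 3xTg_C_1. The counts on the other diets and of the difference between diets kept within 1.5 times under the alternatives run. Of 49 named genes other than Thy1 and App called without the discordant libraries, 12 were called under all 19 alternatives and 3 under the 18 in which they were tested, while 34 lost the call without 3xTg_C_1 and 16 without 3xTg_C_2. The 1 change of sign among named genes was mt-Nd2 as labelled, at -0.10 with quantile normalisation. Of the 32 list medians, 26 in each comparison moved by over 1.5 times when 1 library was left out, and 6 as labelled and 3 without the discordant libraries changed sign. Causes were not tested. Limits from the number of mice and from depth (10.1 to 16.1 M reads in the control libraries) were not compared.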
